A study of Mus musculus with 6 samples.

Results

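Transcripts of 9 enzymes of the pentose phosphate pathway and of cytosolic NADPH supply were compared between MC3T3-E1 cells in osteogenic medium and the same cells in osteogenic medium with metformin. The 9 genes were taken by name from a table of 54532 genes and all 9 were present, 3 of the oxidative branch (G6pdx, Pgls and Pgd), 4 of the non-oxidative branch (Rpia, Rpe, Tkt and Taldo1) and 2 enzymes outside the pathway that also make NADPH in the cytosol (Me1 and Idh1). MC3T3-E1 is an established mouse pre-osteoblast line, and metformin is a biguanide given to lower blood glucose. Both groups received β-glycerophosphate, ascorbic acid and dexamethasone, and RNA was taken after 3 days with or without 0.2 mM metformin, a dose and time that the study's text gives and the labels do not. Each group held 3 samples, described in the methods as biological replicates of a single line. The labels do not say how the cultures were separated, so the p-values measure the spread between these samples.

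The oxidative branch turns glucose-6-phosphate into ribulose-5-phosphate, and its dehydrogenases hand electrons to NADP to give NADPH. The non-oxidative branch interconverts sugar phosphates, so that ribose-5-phosphate can be drawn off for nucleotides or carbon can be returned to glycolysis. NADPH is the reducing agent for fatty acid and sterol synthesis and for keeping glutathione and thioredoxin reduced, and osteoblasts, like other cells, need it for the defence against peroxide.

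Values are FPKM, reads per kilobase of gene scaled to an effective library size, and were traced back to whole reads, 18399861 to 22111790 per sample. The effective sizes, 18260074 to 21790540, followed median-of-ratios factors of the recovered reads, which rest on the typical gene and not on the total. The 9 enzymes had between 423 and 3911 reads each in every sample, far above the 3 reads taken as the smallest signal these depths can show, which are 1.36e-05% to 1.63e-05% of a sample. Of 10 osteoblast markers all were detected, with summed levels of 11416 to 13422 FPKM in osteogenic medium and 8136 to 8632 FPKM with metformin. Of these markers 2 (Col1a1 and Col1a2) were called higher and 2 (Spp1 and Ibsp) lower. The lower sum came mainly from Spp1, with means of 7703 and 2704 FPKM, while Col1a1 went from 1339 to 2487 FPKM and Col1a2 from 970 to 1444 FPKM. The sum of 4 osteocyte markers, nearly all of it Dmp1, was 70.6 to 81.6 FPKM in the controls and 35.6 to 39.2 FPKM with metformin, and the part of these differences in the results below was not tested. Markers of leukocytes, endothelium, adipocytes, chondrocytes, muscle and epithelium were near absent, with a sum over the 6 genes of at most 0.224 FPKM in a control and 0.101 FPKM with metformin, and Myod1 and Epcam were at 0 reads in all samples. Control replicate 1 stood apart from the other controls, with a correlation of log2 values across genes of 0.960 and 0.952 with them, where those had 0.988 with each other.

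With metformin, 5 of the 9 enzymes rose and none fell (limma-trend, adjusted p under 0.05 after Benjamini-Hochberg correction over the 12681 genes tested). The malic enzyme gene Me1 and the transketolase gene Tkt had about doubled levels, and G6pdx, Taldo1 and Idh1 rose by smaller steps. Pgls and Pgd of the oxidative branch and Rpia and Rpe of the non-oxidative branch were not called. Over all tested genes 13.2% were called higher and 9.28% lower. The count of 0 lower enzymes was also 0 at an unadjusted p under 0.05 and 0 with voom on the recovered reads. Among all 12681 tested genes these 2 counts were 2088 and 1237 lower. The median log2 fold change of the 9 was 0.40, beside a median of 0.0053 over all tested genes. The 3 samples with metformin lay above all 3 controls for 6 of the 9 enzymes and below them for 0, where 23.6% of all tested genes were wholly above and 20.5% wholly below. In such bulk cultures a smaller number of cells of a type and less RNA per cell cannot be told apart.

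**Figure D1:**
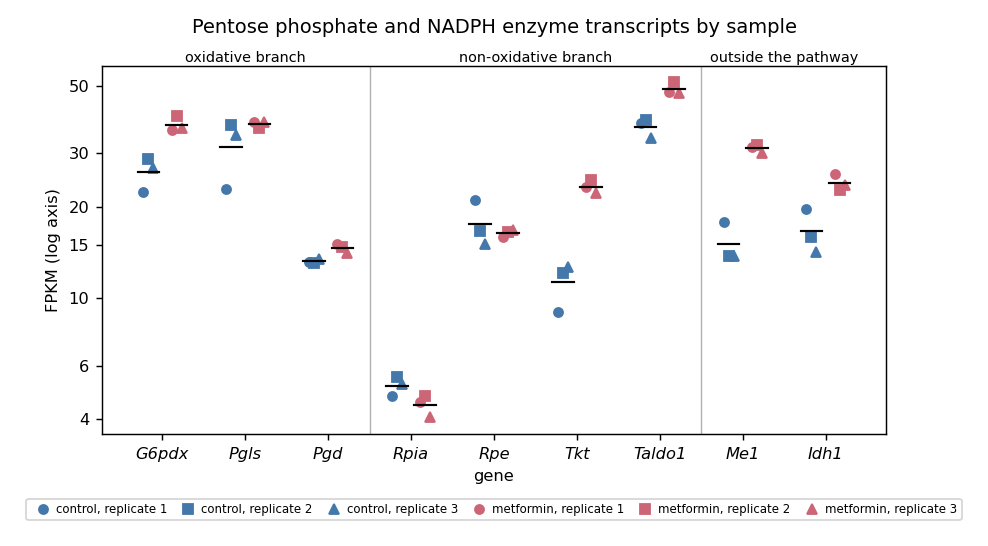
FPKM of the 9 enzymes in each of the 6 samples on a log axis, with controls in blue, metformin in red, replicates by symbol and the group mean as a bar. The red points of Me1 (30.003 to 31.8 FPKM) and Tkt (22.1 to 24.4) sit well above the blue ones, while those of Rpe and Pgls overlap them.

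The promoter windows of 3 of the enzymes that rose are shown because the antioxidant response element, to which Nrf2 binds, was searched for in them. Windows run from 250 bases before to 50 bases after the start site, are written on the strand of the gene and come from RefSeq on GRCm38.p6, and capitals mark a match of the element's core TGACNNNGC on either strand. G6pdx lies on the minus strand, with the window at chrX:74428831-74429130. Me1 is also on the minus strand, with the window at chr9:86695865-86696164, and Tkt is on the plus strand, at chr14:30548881-30549180.
G6pdx: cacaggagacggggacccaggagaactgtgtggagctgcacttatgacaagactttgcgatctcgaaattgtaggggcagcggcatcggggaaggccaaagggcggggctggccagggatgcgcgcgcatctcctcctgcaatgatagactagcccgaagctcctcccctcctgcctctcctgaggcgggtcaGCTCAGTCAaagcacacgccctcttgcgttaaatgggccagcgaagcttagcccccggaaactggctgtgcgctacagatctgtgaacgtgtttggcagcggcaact
Me1: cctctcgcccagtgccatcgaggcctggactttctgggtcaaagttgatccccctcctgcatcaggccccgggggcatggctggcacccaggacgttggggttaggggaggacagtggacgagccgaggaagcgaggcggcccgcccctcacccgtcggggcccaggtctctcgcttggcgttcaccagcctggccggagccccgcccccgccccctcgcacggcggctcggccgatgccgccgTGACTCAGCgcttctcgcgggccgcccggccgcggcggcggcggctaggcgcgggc
Tkt: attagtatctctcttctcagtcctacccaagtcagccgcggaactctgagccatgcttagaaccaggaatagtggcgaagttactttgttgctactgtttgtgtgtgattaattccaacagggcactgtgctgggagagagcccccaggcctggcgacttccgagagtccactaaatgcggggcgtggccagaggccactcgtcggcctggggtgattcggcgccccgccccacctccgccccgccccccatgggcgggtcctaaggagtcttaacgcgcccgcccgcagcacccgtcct

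All 9 enzymes had a window and 3 had a pair of them for alternative starts, 12 windows in all. The core TGACNNNGC was in 3 of the 12 (25.0%), those of G6pdx, Me1 and the second start of Pgd, beside 12.4% of the 32851 windows of all genes. The match began 57 bases before the start site in G6pdx and 6 bases before it in Me1. In the second Pgd window, at chr4:149166033-149166332, it began 3 bases after the start site. Tkt, with a rise close to that of Me1, had no match. Pgd, which was not called, had no match in its first window, and the match in its second window lay after the start site. The sterol response element TCACNCCAC, searched on both strands, was in 0 of the 12 windows and in 1.24% of all, and the E-box CACGTG was in 0 of the 12 and in 7.15% of all. A match of these letters is a description and says nothing of binding.

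In the oxidative branch, the first enzyme rose and the next steps were not called. G6pdx (chromosome X, 74409483 to 74429194) encodes glucose-6-phosphate dehydrogenase, which commits glucose-6-phosphate to the pathway and makes its first NADPH. It had 22.3, 28.7 and 26.7 FPKM in the controls and 35.6, 39.6 and 36.3 FPKM with metformin. The lowest metformin sample lay above the highest control. The means were 25.9 ± 3.30 and 37.1 ± 2.14 FPKM (SD, n = 3), and the log2 fold change was 0.51 (standard error 0.11, 95% interval 0.24 to 0.78, adjusted p = 0.0214). The retrogene G6pd2, which encodes a second glucose-6-phosphate dehydrogenase, had 0 reads in every sample. On the opposite strand the exons of Ikbkg share 418 bases with those of G6pdx, and the counting is not stated to use strand.

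Pgls (chromosome 8, 71592176 to 71601092) encodes the lactonase that opens the ring of the first product. Its controls had 22.9, 37.0 and 34.5 FPKM and the metformin samples 38.0, 36.2 and 38.0 FPKM. The groups overlapped, and the spread of the controls came from replicate 1. The log2 fold change was 0.27 (95% interval -0.15 to 0.69, adjusted p = 0.323), and it was 0.065 without control replicate 1. The listed exons of Pgls share 776 bases with those of Fam129c on the same strand.

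Pgd (chromosome 4, 149149991 to 149166771) encodes 6-phosphogluconate dehydrogenase, which makes the second NADPH and releases carbon dioxide. It had 13.2, 13.1 and 13.5 FPKM in the controls and 15.1, 14.8 and 14.1 FPKM with metformin. The groups did not overlap, but they lay close together. The log2 fold change was 0.14 (95% interval -0.039 to 0.31) and missed the threshold (adjusted p = 0.235), so that rises above 0.31 on the log2 scale lie outside the interval. The level of G6pdx relative to Pgd in the same sample was 1.69, 2.20 and 1.98 in the controls and 2.36, 2.68 and 2.57 with metformin, without overlap. This ratio and those below were chosen after the values were seen and were not tested.

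In the non-oxidative branch, the 2 transferases rose and the 2 enzymes that interconvert pentose phosphates were not called. Tkt (chromosome 14, 30548359 to 30574720) encodes transketolase, which moves units of 2 carbons between sugar phosphates. It had 9.02, 12.1 and 12.7 FPKM in the controls and 23.2, 24.4 and 22.1 FPKM with metformin. Every metformin sample was well above every control, and control replicate 1 was the lowest. The mean went from 11.3 ± 1.96 to 23.2 ± 1.15 FPKM (SD, n = 3), a 2.06-fold level, and the log2 fold change was 0.99 (standard error 0.13, 95% interval 0.68 to 1.31, adjusted p = 0.00288). Of all tested genes, 490 (3.86%) had a larger log2 fold change. The level of Tkt relative to G6pdx was 0.405 to 0.475 in the controls and 0.609 to 0.651 with metformin, without overlap. The paralogs Tktl1 and Tktl2 had at most 1 and 0 reads in a sample.

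Taldo1 (chromosome 7, 141392199 to 141402968) encodes transaldolase, which moves units of 3 carbons. It was the highest of the 9 by FPKM, with 37.6, 38.6 and 33.6 FPKM in the controls and 47.7, 51.2 and 47.3 FPKM with metformin. The groups did not overlap. The means were 36.6 ± 2.67 and 48.7 ± 2.17 FPKM (SD, n = 3), and the log2 fold change was 0.40 (standard error 0.091, 95% interval 0.19 to 0.62, adjusted p = 0.0217). The level of Tkt relative to Taldo1 was 0.240, 0.313 and 0.377 in the controls and 0.486, 0.476 and 0.467 with metformin.

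Rpia (chromosome 6, 70765720 to 70792232) encodes the isomerase that forms ribose-5-phosphate, the precursor of nucleotides. It was the lowest of the 9, with 4.752, 5.50 and 5.21 FPKM in the controls and 4.54, 4.753 and 4.05 FPKM with metformin. The groups touched at a single pair of samples. The log2 fold change was -0.18 (95% interval -0.39 to 0.042, adjusted p = 0.220). The level of Tkt relative to Rpia was 1.90 to 2.43 in the controls and 5.10 to 5.45 with metformin. The longest Rpia transcript, though not its principal one, shares stretches of at least 200 bases at 95% identity with transcripts of 25 other genes, Dhcr7, Dhx33 and Ppil4 among them.

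Rpe (chromosome 1, 66700831 to 66719805) encodes the epimerase that forms xylulose-5-phosphate, a substrate of transketolase. It had 20.97, 16.7 and 15.1 FPKM in the controls and 15.9, 16.5 and 16.8 FPKM with metformin. All metformin values lay within the range of the controls. The log2 fold change was -0.084 (95% interval -0.38 to 0.22, adjusted p = 0.677), and without control replicate 1 it was 0.043. On the opposite strand Kansl1l shares 558 exon bases with Rpe.

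**Figure D2:**
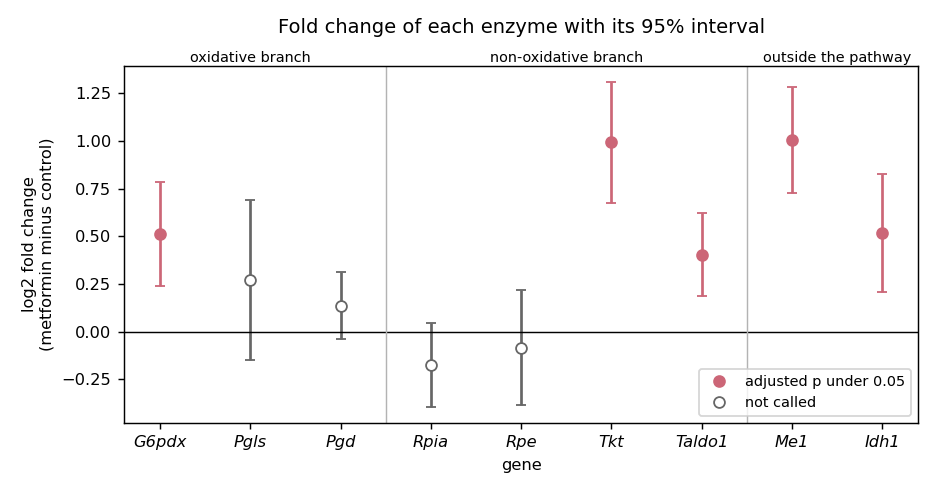
Log2 fold change on the log2(FPKM + 1) scale (metformin minus control) of each enzyme, with its 95% interval from limma-trend. Filled points are called at an adjusted p under 0.05, and the intervals of Pgls, Pgd, Rpia and Rpe include 0.

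Outside the pathway, both enzymes rose. Me1 (chromosome 9, 86581371 to 86695953) encodes the cytosolic malic enzyme, which turns malate into pyruvate with NADPH as a product and is known as a source of NADPH for lipid synthesis. It had 17.8, 13.7 and 13.8 FPKM in the controls and 31.4, 31.8 and 30.003 FPKM with metformin. Here control replicate 1 was the highest control, and still every metformin sample was far above it. The mean went from 15.1 ± 2.34 to 31.1 ± 0.966 FPKM (SD, n = 3), a 2.06-fold level, and the log2 fold change was 1.00 (standard error 0.12, 95% interval 0.73 to 1.28, adjusted p = 0.00160). Of all tested genes, 484 (3.82%) had a larger log2 fold change. Transcripts of Gm7329, Gm7049 and Gm48795 are nearly identical to parts of Me1, and these had at most 2 reads in a sample.

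Idh1 (chromosome 1, 65158616 to 65186500) encodes the cytosolic isocitrate dehydrogenase, which makes NADPH while it forms 2-oxoglutarate. It had 19.6, 15.9 and 14.2 FPKM in the controls and 25.6, 22.7 and 23.5 FPKM with metformin. The groups did not overlap. The means were 16.6 ± 2.79 and 24.0 ± 1.51 FPKM (SD, n = 3), and the log2 fold change was 0.52 (standard error 0.13, 95% interval 0.21 to 0.82, adjusted p = 0.0308). The level of Me1 relative to Idh1 was 0.866 to 0.971 in the controls and 1.23 to 1.40 with metformin, so the order of these 2 enzymes changed in every sample.

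The calls were unequally stable when a sample was left out. Me1 and Tkt stayed called in 6 of 6 such fits, G6pdx and Taldo1 in 3, and Idh1 in 1, the fit without control replicate 1. Without any 1 of the metformin samples 2 of the 9 enzymes were called higher, Me1 and Tkt. Calls over all 12681 tested genes fell as well, to 938, 943 and 985 higher in these fits from 1670 with all samples. Without control replicate 1 they rose to 2969. The size of the changes moved little, from 0.41 to 0.59 for G6pdx, from 0.35 to 0.44 for Taldo1 and from 0.42 to 0.64 for Idh1 on the log2 scale, all positive.

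Summed over each group of enzymes, FPKM was higher with metformin in both branches, and the ratio was largest outside the pathway. The oxidative branch summed to 58.4, 78.8 and 74.6 FPKM in the controls and 88.7, 90.5 and 88.4 FPKM with metformin, 1.26 times the mean of the controls. The non-oxidative branch summed to 72.4, 72.9 and 66.6 FPKM and then 91.3, 96.9 and 90.2 FPKM, 1.31 times. Me1 and Idh1 together had 37.4, 29.6 and 28.0 FPKM and then 57.1, 54.6 and 53.5 FPKM, 1.74 times. The groups did not overlap in any of the 3 sums, which are descriptions with no test. Of the sum over the 9 enzymes, the oxidative branch held 34.7% to 44.1% in the controls and 37.4% to 38.1% with metformin, the non-oxidative branch 39.4% to 43.0% and 38.5% to 40.03%, and Me1 with Idh1 16.3% to 22.3% and 22.6% to 24.1%. The control shares of the oxidative branch were 34.7% in replicate 1, 43.5% in replicate 2 and 44.1% in replicate 3. The metformin shares thus lay below control replicates 2 and 3 and above control replicate 1, which alone made the ranges overlap.

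**Figure D3:**
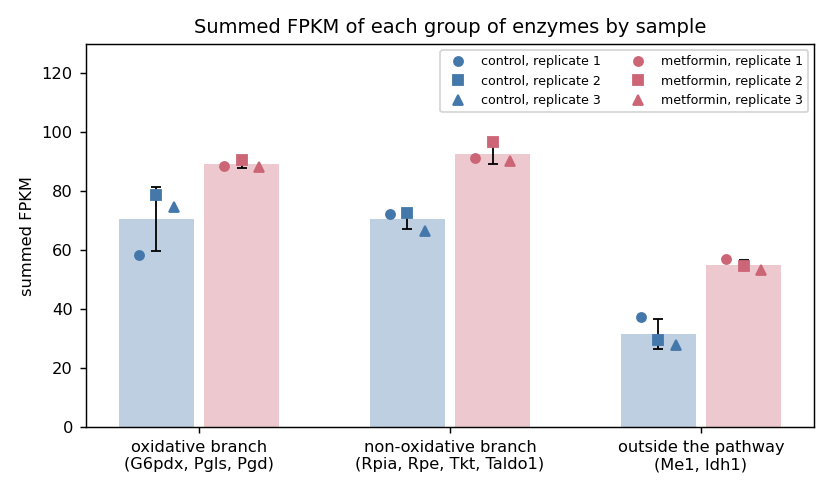
Summed FPKM of the enzymes of each group, with the mean as a bar, the SD over 3 samples as the error bar and each sample as a point. All metformin points lie above all control points in each of the 3 groups, and control replicate 1 is the low point of the oxidative branch and the high point outside the pathway.

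The order of the levels differed between the groups. In osteogenic medium it ran, by mean FPKM, Taldo1 (36.6), Pgls (31.5), G6pdx (25.9), Rpe (17.6), Idh1 (16.6), Me1 (15.1), Pgd (13.2), Tkt (11.3) and Rpia (5.15). Taldo1 and Pgls, Pgls and G6pdx, Rpe and Idh1, and Idh1 and Me1 overlapped between samples as neighbours in this order. With metformin Me1 stood in place 4 in place of 6, Tkt in place 6 in place of 8 and Rpe in place 7 in place of 4. There Pgls and G6pdx, and Idh1 and Tkt, were the neighbours that overlapped.

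These orders depend on the gene length. The listed length equals the union of all annotated exons for each of the 9, which is 3770 bases for Pgls where its principal transcript has 893. Per kilobase of the principal transcript, an alternative chosen after seeing the data, Pgls was the highest with 133 ± 31.6 in the controls and 158 ± 4.502 with metformin (SD, n = 3), Taldo1 was next with 64.7 ± 4.71 and 86.1 ± 3.84, and Tkt had 25.7 ± 4.47 and 53.0 ± 2.63. Rpia was the lowest of the 9 on both scales. Length is the same in every sample, so the ratio of a single gene between groups does not depend on it, but it weights the genes within a sum. Per kilobase of the principal transcript the oxidative branch summed to 161 to 228 in the controls and 242 to 246 with metformin, 1.21 times the mean of the controls. The ratio of the non-oxidative branch was then 1.36, and that of Me1 with Idh1 was 1.73. The groups again did not overlap in any of the 3 sums. The oxidative branch held 48.7% to 58.3% of the sum over the 9 enzymes in the controls and 49.8% to 51.6% with metformin on this scale. The lowest control share was again that of replicate 1, and the other controls lay above the metformin samples. The share of Me1 with Idh1 was 8.93% to 13.4% and 13.3% to 14.03%. It overlapped between the groups here, narrowly and through control replicate 1 alone, where the FPKM shares did not.

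The controls varied more than the metformin samples. For 7 of the 9 enzymes the coefficient of variation was larger in the controls, up to 23.8% for Pgls, and with metformin it was between 2.78% for Rpe and 8.08% for Rpia. Control replicate 1 was lowest of the controls for G6pdx, Pgls, Tkt and Rpia and highest for Rpe, Me1 and Idh1. Its difference from the mean of the other controls ran from -0.62 for Pgls, with a GC content of 57.4% in the longest transcript, to 0.38 for Rpe, with 39.2% (Spearman correlation of -0.883 over the 9 enzymes, which share these libraries). After GC content was regressed out library by library, the difference was -0.20 for Pgls and 0.0052 for Rpe. It became larger for Rpia (-0.14 to -0.29), Taldo1 (0.062 to 0.25) and Pgd (-0.0085 to -0.068), so that a spread of -0.29 to 0.25 over the 9 enzymes remained. With that correction the same 5 enzymes were called higher and none lower, with log2 fold changes of 0.47 for G6pdx, 0.95 for Tkt, 0.36 for Taldo1, 0.94 for Me1 and 0.47 for Idh1.

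**Figure D4:**
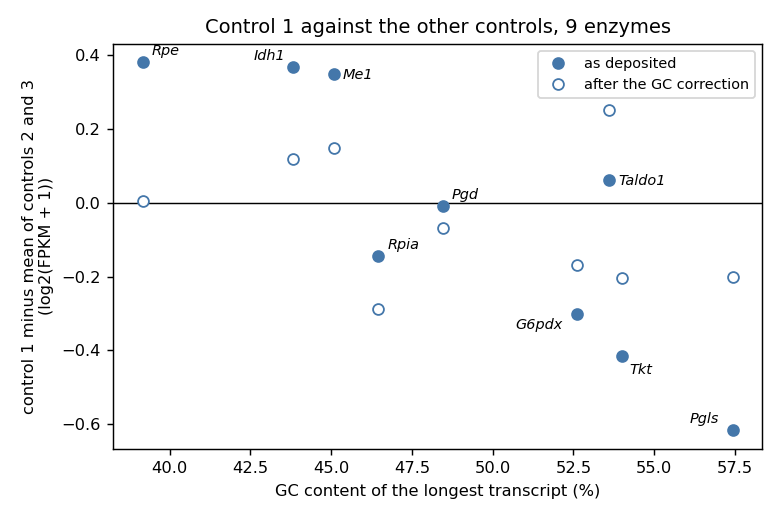
Difference of control replicate 1 from the mean of control replicates 2 and 3 on the log2(FPKM + 1) scale against GC content of the longest transcript, for the 9 enzymes. Filled points are the deposited values and open points those after the GC correction, and the filled points run from 0.38 at 39.2% GC to -0.62 at 57.4%.

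Other genes of the pentose phosphate pathway and of pentose use, called other pentose phosphate genes below, moved in both directions. Of 15 such genes 10 were tested, 3 were called higher and 2 lower. Over all tested genes the shares were 13.2% higher and 9.28% lower. Tigar, whose product lowers the glycolytic activator fructose-2,6-bisphosphate, went from 3.16 ± 0.219 to 4.62 ± 0.577 FPKM (SD, n = 3; log2 fold change 0.43, adjusted p = 0.0279). Dcxr, a xylulose reductase, went from 35.04 ± 2.24 to 47.3 ± 1.25 FPKM (0.42, adjusted p = 0.0143), and Dera, the deoxyribose-phosphate aldolase, from 2.61 ± 0.105 to 3.51 ± 0.0936 FPKM (0.32, adjusted p = 0.0260). The lower genes were those of the kinases Shpk, which phosphorylates sedoheptulose, with 2.54 ± 0.430 and 1.58 ± 0.142 FPKM (-0.45, adjusted p = 0.0329), and Rbks, which phosphorylates ribose, with 1.1999 ± 0.311 and 0.514 ± 0.1202 FPKM (-0.53, adjusted p = 0.0335). These calls depended on single samples. Without metformin replicate 1 or 2 there were 0 higher and 0 lower, without metformin replicate 3 and without control replicate 2 there were 1 and 0 each, without control replicate 3 there were 3 and 1, and without control replicate 1 there were 5 and 2. The median log2 fold change of the 10 was 0.12. H6pd, which runs the oxidative steps in the endoplasmic reticulum, had 10.7 ± 0.593 and 13.1 ± 0.302 FPKM without overlap and was not called (adjusted p = 0.0542). Exons of Tigar overlap those of Platr31.

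Of 12 other genes of NADPH supply 9 were tested, and 5 were called higher and 0 lower. Lower genes were also 0 at an unadjusted p under 0.05 and 0 with voom, and the median log2 fold change was 0.29. Of all 12681 tested genes, 13.2% were called higher and 9.28% lower, with 2088 lower at an unadjusted p under 0.05 and 1237 with voom. Higher genes numbered 7 without control replicate 1 and 4 without any other single sample. The folate enzyme genes Mthfd1 (8.75 ± 1.10 to 16.02 ± 0.328 FPKM, log2 fold change 0.81, adjusted p = 0.00216), Mthfd2 (29.8 ± 3.61 to 50.2 ± 1.81 FPKM, 0.74, adjusted p = 0.00399) and Aldh1l2 (8.12 ± 0.540 to 13.4 ± 0.678 FPKM, 0.66, adjusted p = 0.00236) rose. Of the mitochondrial counterparts, the malic enzyme gene Me2 rose from 7.94 ± 0.935 to 14.1 ± 0.943 FPKM (0.76, adjusted p = 0.00333) and the isocitrate dehydrogenase gene Idh2 from 54.6 ± 1.45 to 66.8 ± 2.09 FPKM (0.29, adjusted p = 0.0424). MTHFD2 and ME2 work mainly with NAD, although both are listed here among genes of NADPH supply. The level of Me1 relative to Me2 was 2.25, 1.54 and 1.96 in the controls and 2.13 to 2.29 with metformin. That of Idh1 relative to Idh2 was 0.359, 0.283 and 0.267 in the controls and 0.331 to 0.381 with metformin. Both ratios overlapped between the groups through control replicate 1 alone. Nnt, the mitochondrial transhydrogenase, had at most 10 reads in a sample and was not tested. Exons of Mthfd1 overlap those of Gm47525, and Aldh1l2 overlaps D10Wsu102e.

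Of 21 genes of enzymes that use NADPH 20 were tested, 10 were called higher and 1 lower, with a median log2 fold change of 0.39. The shares over all tested genes were 13.2% higher and 9.28% lower. Some of them, Hsd17b7 and Cbr2 included, are named in the study from these samples, so the count is not independent evidence of a direction. Hsd17b7, an enzyme of cholesterol synthesis, had 6.89 ± 2.24 and 22.1 ± 1.09 FPKM (SD, n = 3; log2 fold change 1.59, adjusted p = 0.00198). Cbr2, which encodes a carbonyl reductase, had 8.82 ± 2.40 and 22.7 ± 0.397 FPKM (1.31, adjusted p = 0.00376). Cyp51, the sterol demethylase gene, had 42.8 ± 10.1 and 97.1 ± 3.13 FPKM (1.19, adjusted p = 0.00343), and its exons overlap those of Akap9. The lower gene was Cbr1, of another carbonyl reductase, with 2.51 ± 0.121 and 1.45 ± 0.2001 FPKM (-0.52, adjusted p = 0.0104). The oxidase subunit gene Cybb had 0 reads in all samples.

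**Figure D5:**
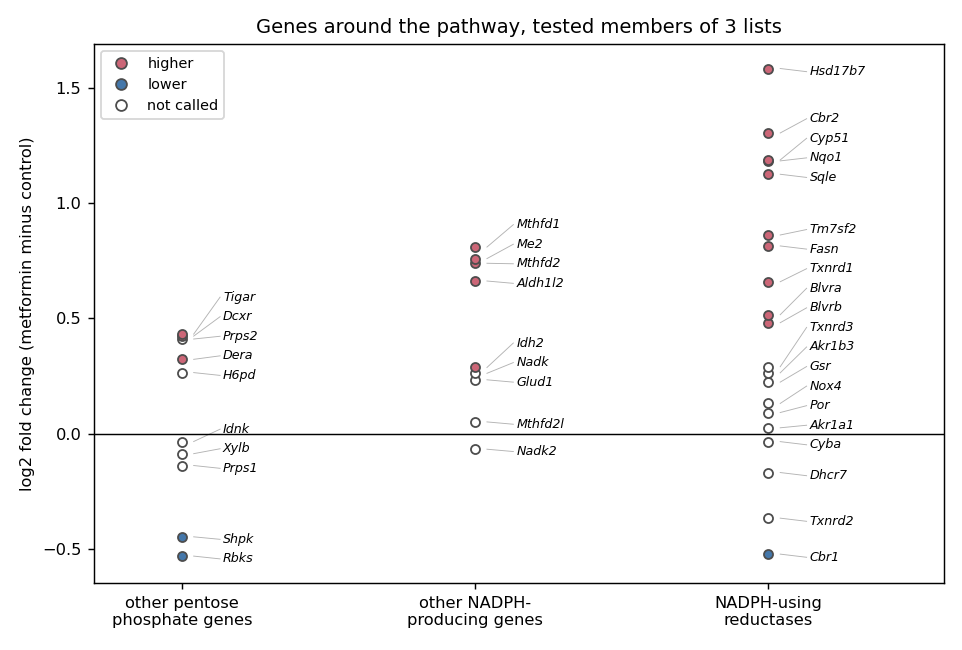
Log2 fold change (metformin minus control) of each tested gene of 3 lists around the pathway, with called genes filled in red (higher) or blue (lower) and genes not called open. The 10 other pentose phosphate genes spread from -0.53 to 0.43, the 9 genes of NADPH supply from -0.068 to 0.81 and the 20 genes of NADPH-using enzymes from -0.52 to 1.59.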

How the data were processed

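The authors deposited a table of normalized values for 54532 genes and 6 samples. Its header names no unit, and the deposited values are FPKM, since each value above 0 times the listed gene length is a whole multiple of a step per sample (100%, within 0.01 reads). The paper names no aligner. The submitters' processing notes name Bowtie 0.12.2 and the builds mm8 and mm9, whereas 53585 genes have the coordinates of GENCODE M21 (GRCm38), the build of all coordinates here. Listed lengths equal the union of exons for 53411 genes. Columns of other samples numbered 0.

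The study used a count model. As FPKM are not counts, limma-trend (limma 3.58.1, R 4.3.3) was fitted on log2(FPKM + 1), which understates changes of low genes. It covered 12681 genes, those whose mean reached 0.5 FPKM, and adjusted p-values had a threshold of 0.05. The fit was checked on simulated data of 12681 genes, where 186 of 200 changed genes and 17 unchanged genes were called. All simulated samples had the same spread and no GC trend, unlike the controls here. Near-identical transcripts (BLAST+ 2.17.0) had 95% identity over 200 bases. The 9 enzymes and the lists were chosen with earlier results of these data known. Named were all 9, the called genes of the lists of other pathway and NADPH supply genes, and up to 3 largest called changes each way among NADPH users (some genes of that list are not reported here), while H6pd and genes at few reads were named after their values were seen. Alternatives were another pseudocount, scaling by total reads, other filters, voom on recovered reads, a GC correction (spline with 5 degrees of freedom), the replicate number as a block, and leaving out each sample. Figures were drawn with matplotlib 3.10.9.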

Additional observations from a re-analysis of the deposited data

How the results depend on the processing

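All 5 calls among the enzymes held with a pseudocount of 0.1, scaling by total reads, at least 10 reads in every sample, voom and the GC correction, and 0 enzymes were called lower in any fit. Over the fits that each left out a sample, 2 to 5 enzymes were called higher, with log2 fold changes of 0.41 to 0.59 for G6pdx, 0.35 to 0.44 for Taldo1, 0.42 to 0.64 for Idh1 and -0.18 to 0.043 for Rpe, whose sign turned without control replicate 1. With the replicate block Taldo1 was not called (log2 fold change 0.40, adjusted p = 0.0726, and 0.36 with the GC correction as well, adjusted p = 0.0508), and without a filter on low values, where more genes share the adjustment, Idh1 was not (0.52, adjusted p = 0.0615). The ratio of the non-oxidative branch was 1.22 as a mean of log2(FPKM + 1). When a sample was left out, the ratio of the summed FPKM was 1.16 to 1.34 for the oxidative branch. It was 1.28 to 1.34 for the non-oxidative branch and 1.64 to 1.91 for Me1 with Idh1. Without control replicate 1 the 3 ratios were 1.16, 1.33 and 1.91.

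Other pentose phosphate genes called higher and lower were 1 and 0 without a filter and 0 and 0 with the replicate block, 1 was higher with that block and the GC correction, and they ranged from 0 to 5 and from 0 to 2 when a sample was left out. Other genes of NADPH supply called higher were 4 with the GC correction, with the replicate block and with both, and 4 to 7 when a sample was left out. NADPH-using genes called lower were 3 with the GC correction, 2 with the block as well and 1 to 3 when a sample was left out. Of all tested genes, 1670 were higher and 1177 lower. Lower genes were 698 with the replicate block, 2433 with the GC correction and 1888 with both, and leaving out a sample gave 938 to 2969 higher and 495 to 2590 lower genes. Departures from the group mean correlated at -0.053, 0.00027 and -0.055 between samples of the same number. With 3 samples per group these values cannot decide whether the numbers mark pairs, and the labels do not say. The cause of these changes was not tested. Under the GC correction the median gene shifted by -0.054 on the log2 scale.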
